A study of Zea mays with 4 samples.

Results

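Gibberellins are growth hormones that make plant cells divide and lengthen. A list of 8 genes, drawn up for gibberellin synthesis, inactivation, perception and repression, was followed through a maize RNA-seq table of 30378 loci. The list gives no role for 1 of them, AC203966.5_FG005. The 8 were picked by gene ID or symbol, with earlier results of these data known. RNA came from the elongation zone of leaf 6 of hydroponically grown maize inbred B73, the line of the reference genome, with no transgene or mutation named in the labels. Plants given 4 mM nitrogen made up the HN group and plants given 0.04 mM the LN group, with 2 libraries each. For HN, 1 label gives the unit as nM and another as mM, and mM is used here. The series' title ties the smaller cell flux and slower elongation of low-nitrogen leaves to gibberellin synthesis, so the question put to these genes was whether their transcripts differed between the 2 nitrogen supplies. Plant age and the number of plants per library were not given in the sources used here.

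Gibberellin is built in plastids from ent-copalyl diphosphate and ent-kaurene, oxidised by cytochrome P450 enzymes, and finished by soluble oxidases of which GA3-oxidase makes the bioactive forms. GA2-oxidases and some P450 enzymes inactivate it. The bioactive hormone binds the receptor GID1, which then leads the growth-repressing DELLA proteins to degradation. In the growing maize leaf the bioactive hormone is known to peak near the border between dividing and lengthening cells.

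Levels are FPKM, fragment numbers set relative to transcript length and library size, so they can be compared between genes. Both HN columns of the table carried the same name, so HN1 and HN2 stand for their order and pair nothing with LN1 or LN2. The labels do not state whether replicate libraries are separate plants, and the p-values therefore describe the spread among these 4 samples, possibly a technical one. FPKM totals ran from 666397 to 1113330, highest in HN2. The value of a single fragment, read from loci of few fragments, put the depth of LN2, HN1 and HN2 at 91.5%, 75.8% and 64.4% of that of LN1, while absolute depth stays unknown. Shoot meristem markers were near the floor, with 2 of 6 listed symbols found and none above 0.08 FPKM, and kn1 was at 0 in both LN libraries. All 9 listed markers of lengthening cells were found, with sums of 5614 to 8841 FPKM in HN and 7249 to 7893 in LN. TUBA2, TUBA4, PIP1-1 and PIP1-2 carried most of these sums. Of the listed genes expB8 and expB2 were lower in both LN libraries, expA1 and xth1 were higher, and the groups of the others overlapped. Sums of dividing-cell markers (16 loci, 9 of 11 symbols) were 2311 to 4544 in HN and 727 to 818 in LN, and sums of mature-blade photosynthesis markers (7 loci, 6 of 9 symbols) 5214 to 9358 and 1705 to 2787. Histone loci carried most of the dividing-cell sums. PCNA2 was also lower in LN, at 35.0 and 54.5 FPKM in HN1 and HN2, against 17.1 and 12.2 in LN1 and LN2. Other genes of that list did not go the same way. The gene cyclin4 was at 25.9 and 24.5 FPKM in HN1 and HN2, against 43.7 and 43.3 in LN1 and LN2. GRF10 was also higher in both LN libraries, and the groups of GRF4 and GIF1 overlapped. CAB1 carried most of the photosynthesis sums, at 4500 and 8409 FPKM in HN1 and HN2, against 2577 and 1578 in LN1 and LN2. A second pep1 locus went the other way, at 8.01 and 9.55 FPKM in HN1 and HN2, against 13.9 and 16.5 in LN1 and LN2. The other loci of that list were, like CAB1, lower in both LN libraries. Secondary-wall markers (3 of 4 symbols) summed to 15.4 to 18.5 in HN and 39.5 to 41.7 in LN. The part of these marker differences in the gibberellin values below was not tested. In bulk RNA, fewer cells of a type and less RNA per cell cannot be told apart.

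The picture was uneven among the 8 genes. CYP714B3, a P450 gene, rose in LN, and AC203966.5_FG005, which is given no role here, fell. The synthesis gene CYP88A1 and the DELLA gene d9 had lower values in both LN libraries but did not pass the threshold, and Dwarf1, the GA3-oxidase gene of the last synthesis step, showed no separation of the groups. By limma on log2(FPKM + 1), with Benjamini-Hochberg adjustment over 22489 tested loci at 0.05, 1 member was higher and 1 lower. Over all tested loci 1.18% were called higher and 3.8% lower, 4.98% in all. Without LN1 or without LN2 0 members were called, and without HN1 2 were higher and 4 lower, in a fit that called 5165 loci higher and 5305 lower. Of the 8 members 7 were tested, since GRMZM2G006964 did not reach 1 FPKM in 2 libraries.

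**Figure D1:**
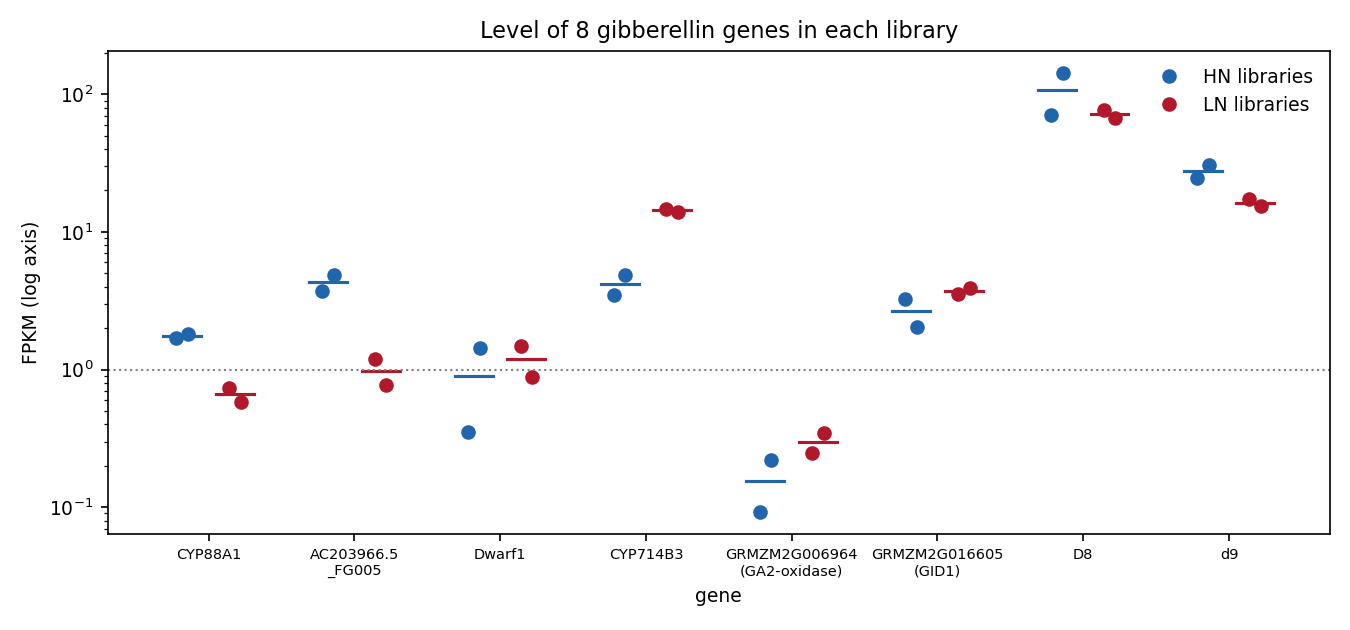
FPKM of the 8 genes on a log axis in each library, with HN points in blue, LN points in red and a bar at each group mean. The dotted line marks 1 FPKM, the level used to choose tested loci; CYP714B3 stands at 14.0 and 14.7 in LN against 3.46 and 4.90 in HN, and GRMZM2G006964 stays below 0.35 throughout.

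Synthesis genes came first, together with AC203966.5_FG005, which is given no role. CYP88A1, also known as dwarf3, encodes the ent-kaurenoic acid oxidase, a P450 enzyme in the middle of the pathway whose loss makes maize plants dwarf. Its locus (chromosome 9, 26725935 to 26729883, coordinates of B73 RefGen_v3 throughout) was at 1.71 and 1.82 FPKM in HN1 and HN2, against 0.737 and 0.584 in LN1 and LN2. The HN pair differed by 1.07-fold. Among 1233 loci of similar mean level (within 1.2-fold, above 0 in every library), that pair differed by a median of 1.56-fold. The 90th percentile was 3.35-fold. Both LN values of CYP88A1 lay below both of its HN values. Mean levels were 1.76 ± 0.0799 (SD, n = 2) in HN and 0.660 ± 0.109 in LN, so the HN mean was 2.67-fold the LN mean. The log2(FPKM + 1) scale compresses differences of such weak genes, and on it the difference was -0.74 (95% interval -1.27 to -0.21) and did not pass (limma adjusted p = 0.0916). CYP88A1 entered the test through its HN values alone, as both LN values were below 1 FPKM. The call depended on the setting, at adjusted p = 0.0485 under quantile normalization and 0.0468 without HN1 by limma. In the authors' deposited table it was called, with a log2 fold change of -1.53 and a q-value of 0.0084.

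AC203966.5_FG005 (chromosome 1, 299607381 to 299608497) has no entry under its ID in the RefSeq gene table, so it is given no role here. Its locus spans 1117 bp, the shortest of the 8, and overlaps no other locus. The flanking deposited loci each hold several genes, among them GRMZM2G347956 on the lower-coordinate side and, on the other, AC203966.5_FG002 with GRMZM5G896082. In the RefSeq annotation 1 gene, with the synonym GA20, lies between GRMZM2G347956 and GRMZM5G896082, but no entry ties that gene to the deposited ID. Its level was 3.71 and 4.87 FPKM in HN1 and HN2, against 1.19 and 0.772 in LN1 and LN2. Both LN values were less than any HN value, and the 4.37-fold ratio of the group means exceeded the 1.31-fold and 1.54-fold differences within the HN and LN pairs. AC203966.5_FG005 fell by 1.42 on the log2 scale (SE 0.25, 95% interval -2.03 to -0.80, limma adjusted p = 0.0459). It entered the test through its HN values, as LN2 was below 1 FPKM and LN1 alone would not have met the filter. The authors' deposited table also called it lower, with a log2 fold change of -2.21 and a q-value of 0.000115. The limma call ended with a pseudocount of 0.1 (adjusted p = 0.0551), with no filter (0.0801), without LN1 (0.247) and without LN2 (0.287), while the value stayed between -2.04 and -1.26 over 9 alternatives. A filter at 5 FPKM removed it from the test.

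Dwarf1 (GRMZM2G036340, chromosome 3, 10455336 to 10457618) encodes the GA3-oxidase that makes bioactive gibberellin, and its loss gives dwarf maize. It was at 0.354 and 1.44 FPKM in HN1 and HN2, against 1.49 and 0.878 in LN1 and LN2. The groups overlapped, and the 2 HN libraries differed from each other by 4.06-fold. Among 1160 loci of similar mean level (within 1.2-fold, above 0 in every library), the HN pair differed by a median of 1.60-fold, with a 90th percentile of 3.48-fold, so Dwarf1 was more variable between the HN libraries than most loci at its level. The difference between groups was 0.25 (95% interval -0.63 to 1.13, limma adjusted p = 0.649), an interval that holds both a fall and a rise. It changed sign without HN1, to -0.17. The authors' deposited table gave a log2 fold change of 0.30 with a q-value of 0.859.

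Few upstream enzymes outside the 8 were found, in a search by gene name that misses genes without a known symbol. A wider pathway list, matched by symbol, found 12 reference genes, of which 8 had a locus of their own in the table, and the 4 with none (an2, KSL4, ga3ox2 and Myb33) were not analysed here. With the members found by ID alone the list held 11 genes, 3 of them outside the 8. The ent-copalyl diphosphate synthase gene an1 (chromosome 1, 241277427 to 241285679), of the first committed step, was at 0.610 and 0.170 FPKM in HN1 and HN2, against 0.244 and 0.227 in LN1 and LN2. The groups of an1 overlapped, with HN1 the highest. A gene named TPS1 in the table (chromosome 2, 10602718 to 10611664) was matched by name alone to KS2.1, a name for ent-kaurene synthase. It was at 0.189 and 0.279 FPKM in the HN libraries, with 0.264 and 0.111 in LN, also with overlap. Neither reached the filter. A gene with the symbol CPS1 (GRMZM2G156565, chromosome 1, 295549667 to 295563821) is given no role, since other gene families also use that symbol. It was at 8.25 and 4.54 FPKM in the HN libraries, with 5.02 and 5.71 in LN, with overlap (log2 change -0.17, limma adjusted p = 0.724). Over the wider list 8 of 11 genes were tested, 7 of them members and the other CPS1, so the list adds little to the members. Of those tested 1 was higher and 1 lower, both members, beside 1.18% and 3.8% of all tested loci. The median log2 change was -0.33, beside 0.073 over all tested loci.

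A P450 gene and a gene of the inactivating oxidases came next. CYP714B3 (GRMZM2G106408, chromosome 1, 54731139 to 54737676) is a cytochrome P450 gene. In rice, enzymes of the CYP714B subfamily hydroxylate gibberellins, and the related CYP714D1 inactivates them. The maize gene was at 3.46 and 4.90 FPKM in HN1 and HN2, against 14.7 and 14.0 in LN1 and LN2. Every LN value lay far above both HN values, and the LN pair differed by 1.04-fold. Among 2431 loci of similar level the median difference was 1.35-fold within the HN pair and 1.10-fold within the LN pair. The 90th percentiles were 2.18-fold and 1.33-fold. The mean of CYP714B3 was 3.43-fold higher in LN, and the log2 change was 1.58 (SE 0.23, 95% interval 1.003 to 2.16, limma adjusted p = 0.0446). The authors' deposited table gave a log2 fold change of 1.68 with a q-value of 2.4e-05. The limma call ended under the same 4 alternatives as that of AC203966.5_FG005, at adjusted p = 0.0517 (pseudocount of 0.1), 0.0737 (no filter), 0.267 (without LN1) and 0.215 (without LN2), and the value ranged from 1.38 to 1.78 over 10 alternatives. A neighbouring locus, GRMZM2G106283, lies 463 bp away and does not overlap it.

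GRMZM2G006964 (chromosome 2, 28389254 to 28392075), listed as a GA2-oxidase gene, belongs to the enzyme family that inactivates gibberellin. It was at 0.0928 and 0.219 FPKM in HN1 and HN2, against 0.246 and 0.346 in LN1 and LN2. Both LN values were above both HN values, but the step between 0.219 and 0.246 was small against the 2.36-fold difference within the HN pair. Divided by the relative worth of 1 fragment, and with HN1 set to 2, the values of HN2, LN1 and LN2 stood near 4, 7 and 9. Each of these lay within 0.01 of a whole number. With 2 for HN1, these are the smallest whole numbers that match, so the level may rest on as few fragments as that. Whether a difference could be detected at this depth was not tested. In a fit without a filter the log2 change was 0.17 (SE 0.10, limma adjusted p = 0.361), and the authors' deposited table gave a log2 fold change of 0.89 with a q-value of 0.56.

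**Figure D2:**
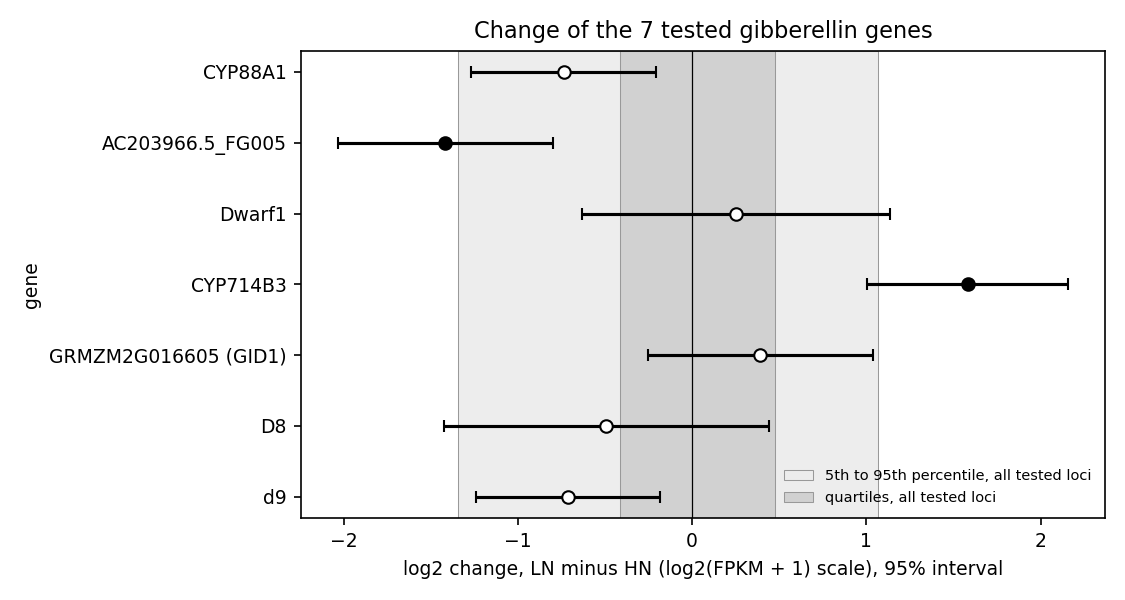
Log2 change, LN minus HN, of the 7 tested genes with 95% intervals from limma, filled where the adjusted p was under 0.05. Shaded bands give the quartiles (-0.41 to 0.48) and the 5th to 95th percentiles (-1.35 to 1.07) of all 22489 tested loci; CYP714B3 and AC203966.5_FG005 lie outside the wider band, and the other 5 within it.

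The receptor gene did not pass the test. GRMZM2G016605 (chromosome 8, 106153812 to 106156418), listed as a GID1 gene, was at 3.28 and 2.03 FPKM in HN1 and HN2, against 3.54 and 3.92 in LN1 and LN2. Both LN values were above both HN values, yet the HN pair differed by 1.61-fold and the group means by 1.40-fold. The log2 change was 0.39 (95% interval -0.25 to 1.04, limma adjusted p = 0.333). Without HN1 it was 0.64 and called (limma adjusted p = 0.0427), and without HN2 it was 0.14 (adjusted p = 0.532). The authors' deposited table gave a log2 fold change of 0.40 with a q-value of 0.569.

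D8 and d9 encode the maize DELLA repressors, known from dominant dwarf alleles whose proteins escape gibberellin-triggered degradation. They are close relatives, so reads may be split between them, and both are reported with that limit. D8 (GRMZM2G144744, chromosome 1, 266160100 to 266163168) was the most abundant of the 8, at 70.95 and 143 FPKM in HN1 and HN2, against 76.2 and 67.1 in LN1 and LN2. HN2 alone was high and HN1 lay between the LN libraries. The HN pair differed by 2.02-fold, against a median of 1.40-fold and a 90th percentile of 1.98-fold among 531 loci of similar level. The log2 change of -0.49 (95% interval -1.42 to 0.44, limma adjusted p = 0.395) was 0.01 without HN2 and -0.99 without HN1 (limma adjusted p = 0.0135), and it was -0.04 under quantile normalization. The authors' deposited table gave it a q-value of 0.209.

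d9 (GRMZM2G024973, chromosome 5, 11793472 to 11795945) was at 24.5 and 30.5 FPKM in HN1 and HN2, against 17.3 and 15.4 in LN1 and LN2. Both LN libraries were lower than both HN libraries. The HN mean was 1.68-fold the LN mean, with differences of 1.25-fold within the HN pair and 1.12-fold within the LN pair. Among 1827 loci of similar level the HN pair differed by a median of 1.31-fold, with a 90th percentile of 1.96-fold. The log2 change was -0.71 (95% interval -1.24 to -0.18) and did not pass the threshold (limma adjusted p = 0.0959). It passed without HN1, at -0.87 (limma adjusted p = 0.0152), and it kept its sign in 10 of 10 alternatives. The authors' deposited table called it lower, with a log2 fold change of -0.84 and a q-value of 0.0416.

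The proportion of the DELLA transcripts did not separate the groups. D8 stood at 2.90 and 4.69 times d9 in HN1 and HN2, against 4.40 and 4.36 times in LN1 and LN2. Both LN ratios lay between the HN ratios. An exact permutation test of the log2 ratio, two-sided, gave p = 1.0, where 2 against 2 libraries allow no p below 0.333. The summed DELLA level was 95.4 and 174 FPKM in HN1 and HN2, against 93.5 and 82.5 in LN1 and LN2, so its difference also rested on HN2.

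**Figure D3:**
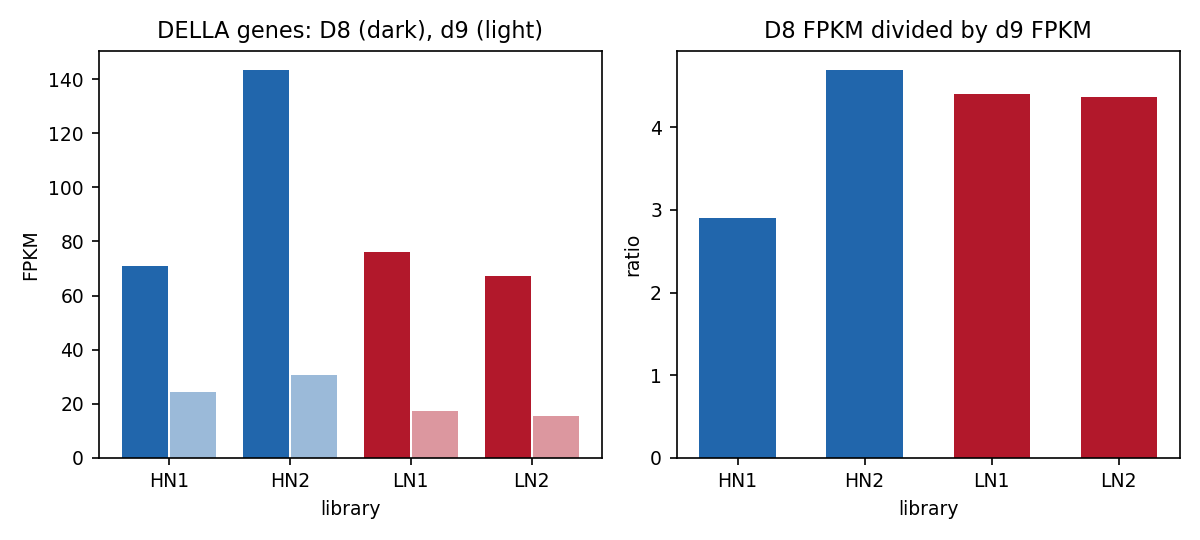
FPKM of D8 and d9 in each library (left) and the ratio of D8 to d9 (right), with HN in blue and LN in red. d9 is lower in both LN libraries, D8 is high in HN2 alone, and the ratio is lowest in HN1, at 2.90.

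The order of levels shifted between the supplies. In HN the order from the top was D8, d9, AC203966.5_FG005, CYP714B3, GRMZM2G016605, CYP88A1, Dwarf1 and GRMZM2G006964, and only AC203966.5_FG005 and CYP714B3 overlapped as neighbours. In LN CYP714B3 stood directly below d9, and AC203966.5_FG005 stood below GRMZM2G016605 and Dwarf1. Dwarf1 and AC203966.5_FG005 were the only neighbours that overlapped there. The LN level of CYP714B3 came close to that of d9. The ratio of d9 to CYP714B3, which does not depend on scaling between libraries, was 7.08 and 6.23 in HN1 and HN2, against 1.18 and 1.096 in LN1 and LN2. The ratio of CYP714B3 to AC203966.5_FG005 was 0.933 and 1.01 in HN1 and HN2, against 12.3 and 18.2 in LN1 and LN2. Dwarf1 stood at 0.208 and 0.791 times CYP88A1 in HN1 and HN2, against 2.02 and 1.51 times in LN1 and LN2. These ratios pair genes chosen after their values were seen and were not tested. Against all loci of a library, D8 exceeded 93.8% to 95.8% of them, while CYP714B3 moved from above 45.8% and 53.4% in HN to above 73.9% and 72.7% in LN.

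In 3 members (CYP88A1, AC203966.5_FG005 and d9) both LN values were below both HN values, and in 3 (CYP714B3, GRMZM2G006964 and GRMZM2G016605) both were above. Over all 30378 loci 26.5% were separated downward and 35% upward, 61.4% in all, so separation alone is common in this table. At an unadjusted limma p under 0.05, 3 members were lower and 1 higher, beside 16.4% and 15.9% of all tested loci. The authors' deposited table called 3 members lower and 1 higher at a q-value under 0.05, beside 10.5% and 4.99% of all loci.

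**Figure D4:**
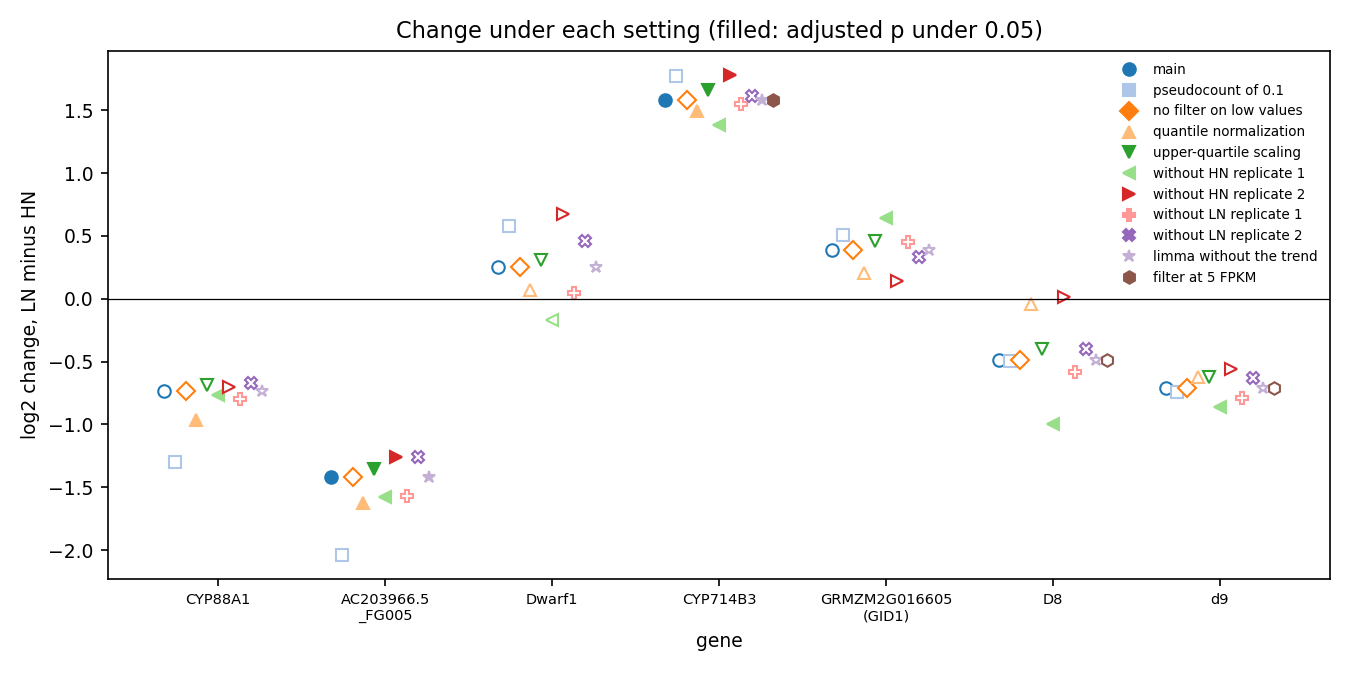
Log2 change, LN minus HN, of the 7 tested genes in the main setting and under each alternative (one symbol per setting, filled where limma's adjusted p was under 0.05). CYP714B3 stays between 1.38 and 1.78 and AC203966.5_FG005 between -2.04 and -1.26, while D8 reaches 0.01 and Dwarf1 -0.17 when 1 HN library is left out.

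Loci with the nearest patterns were sought among 377 tested single-gene loci with a symbol, by Euclidean distance of log2(FPKM + 1) over the 4 libraries, as a description. CYP88A1 lay nearest to VP14, a gene of abscisic acid synthesis, at 0.33, and AC203966.5_FG005 to RAD51A, a recombinase gene, at 0.58. CYP714B3 lay nearest to the alcohol dehydrogenase gene ADH2, at 0.83, which was at 6.25 and 5.76 FPKM in the HN libraries, with 13.2 and 10.5 in LN. D8 lay nearest to the beta-tubulin gene TUBB1 at 0.45, which was likewise high in HN2 alone (127 FPKM against 51.2 to 70.4). d9 lay nearest to pco060792 at 0.32, GRMZM2G016605 to sbp18 at 0.45, and Dwarf1 to ts1 at 0.81.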

How the data were processed

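The authors deposited 1 table of FPKM values for 4 libraries, and with columns for LN against HN that hold a log2 fold change, a p-value and a q-value, per the file headers. TopHat2, edgeR and the build B73 RefGen_v3 are named in the submitters' processing notes, without versions, and no transcript assembler is given in the sources used here. The table's 31324 rows hold 30378 loci, and a locus repeated under several genes was tested once. No locus of the 8 genes was shared. Gene names came from the file and from the RefSeq gene table (Zm-B73-REFERENCE-NAM-5.0, names and neighbours alone), where 7 of the 8 had 1 entry. The roles of GRMZM2G016605 and GRMZM2G006964 come from the list of members, as that table names neither.

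limma 3.58.1 (R 4.3.3) with a trended prior was run on log2(FPKM + 1), for loci that reached 1 FPKM in 2 libraries, without covariates, and p-values were adjusted by Benjamini-Hochberg over all tested loci. The script was tested on simulated data with the same spread at every locus and in both groups. Large changes were placed in well-expressed loci alone. That test does not cover changes in weak genes or an unequal spread of the groups. Residual degrees of freedom were 2 and prior degrees of freedom 3.48. Intervals are unadjusted. The HN columns carry no replicate number, so no block was fitted. The members, lists, tests and alternatives were chosen with earlier results of these data known. All 8 members are named, with the wider list's 3 other genes (those past the threshold or among its 6 most abundant, and the rest since they were few), and the nearest loci by distance. No sequences were used here.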

Additional observations from a re-analysis of the deposited data

How the results depend on the processing

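At the members' levels the median difference within the HN pair was 1.31- to 1.94-fold and within the LN pair 1.09- to 1.52-fold, and a fit without 1 library takes its spread from the pair that remains whole. Leaving out 1 library in turn, members higher ranged from 0 to 2 and lower from 0 to 4, the same for the wider list, and all loci from 22 to 5165 higher and 43 to 5305 lower. Over these fits the log2 change ran from -0.80 to -0.67 for CYP88A1, -1.57 to -1.26 for AC203966.5_FG005, -0.17 to 0.68 for Dwarf1, 1.38 to 1.78 for CYP714B3, 0.14 to 0.64 for GRMZM2G016605, -0.99 to 0.011 for D8 and -0.87 to -0.56 for d9. The log2 ratio of D8 to d9, LN minus HN, was 0.25 with all libraries and -0.099 to 0.60 with 1 left out. With a pseudocount of 0.1, 0 members and 0 list genes were called either way and 32 loci higher and 69 lower, with AC203966.5_FG005 at -2.04 and CYP714B3 at 1.78. Without a filter, 0 members and 0 list genes were called, and 1 locus higher and 0 lower, with AC203966.5_FG005 at -1.42 and CYP714B3 at 1.58 as in the main setting, where 266 loci were higher and 855 lower. There the number of loci adjusted over rose to 30378. A filter at 5 FPKM left 3 members, with 1 higher (CYP714B3) and 0 lower, and 4 list genes, also with 1 higher and 0 lower. AC203966.5_FG005 was no longer tested there. Of 15591 loci tested at that filter, 276 were higher and 1087 lower. Quantile normalization gave 2 members and 2 list genes lower (CYP88A1 at -0.96) and 971 loci higher and 1749 lower. Upper-quartile scaling gave 415 loci higher and 1159 lower, with 1 member higher and 1 lower as in the main setting. Limma without the trend changed no member's call. The lower share of all calls was 76.3% in the main setting and 64.3% under quantile normalization. Causes of these shifts were not tested. No paired analysis was possible because both HN columns carry the same name and no replicate number of their own.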
